A study of Homo sapiens with 6 samples.

Results

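The set described here holds the 120 genes that were clearly lower in K562 cells given a mimic of hsa-miR-92a-1-5p than in cells given a scramble mimic. Members were chosen on measured values: CPM, the count per 1000000 counts of its library, had to average at least 20 in the scramble libraries, and the highest CPM among the mimic libraries had to lie below 0.75 times the lowest CPM among the scramble libraries. Of the 35615 gene symbols in the table, 7782 met the abundance limit, and the 120 members were 1.54% of them. With the fold limit turned round, for genes higher with the mimic, and the abundance limit kept on the scramble libraries, 56 genes were chosen. Genes raised from a scramble level below that limit were thus not counted. Since the choice rests on these 6 libraries, the levels and differences of the members are given as a description, with no test.

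K562 is a human erythroleukaemia line that carries the BCR-ABL1 fusion kinase. The miR92a group was 3 cultures nucleofected, as 5 M cells, with 500 pmol of the synthetic miR-92a-1-5p mimic, and the scramble group was 3 cultures nucleofected in the same way with a negative-control mimic. Both groups received 1 µM imatinib, an inhibitor of the BCR-ABL1 kinase, added 4 h after the nucleofection, and RNA was extracted after a further 24 h. The series asked which transcripts the mimic lowers in imatinib-treated cells.

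A microRNA guides the silencing complex to messenger RNAs through its seed, the short stretch near its 5′ end that pairs with complementary letters, most often in the 3′ untranslated region (UTR), and the paired transcripts are then degraded or translated less. The miR-92a-1 hairpin gives 2 mature microRNAs, miR-92a-3p from the 3′ arm, which is usually the abundant one, and miR-92a-1-5p from the other arm, and these have unrelated seeds. The sequence of the mimicked strand follows as RefSeq annotates it on GRCh38.p14, at chr13:91351324-91351346 on the plus strand, with the seed (bases 2 to 8) in capitals.
hsa-miR-92a-1-5p: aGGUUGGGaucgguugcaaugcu

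A transcript that pairs with bases 2 to 7 of this strand carries the letters CCAACC (a 6mer match). Pairing with base 8 as well gives CCCAACC (7mer-m8), an A after the 6mer gives CCAACCA (7mer-A1), and both together give CCCAACCA (8mer). These letters were looked for on the transcript strand only. The text searched was each gene's longest 3′ UTR as annotated by GENCODE v29 (GRCh38), and a gene was counted under its longest match. This 3′ UTR can include letters that are coding in another isoform of the gene, as may be so for REPIN1. How many matches lie in such letters was not checked. The windows below are shown because they belong to the 5 members with the widest gap between groups and to members whose matches are described further on. Capitals mark the match, and the window of PPME1 is shorter because its annotated 3′ UTR ends there.
SLC25A23, chr19:6441821-6441850, minus strand: gactcctatgcCCCAACCAttgggtcatgg
SLC25A23, chr19:6441763-6441792, minus strand: gactcctatgcCCCAACCActgggtcatgc
PUDP, chrX:7050189-7050218, minus strand: aactcttcaatCCCAACCtgcgctgtgatt
MYO1D, chr17:32494671-32494700, minus strand: agctgctgcctCCCAACCcatgcccgctag
TMEM50A, chr1:25360759-25360788, plus strand: tactgctcactCCCAACCttttgtaatgcc
PPME1, chr11:74254682-74254703, plus strand: aataaatatctCCCAACCttta
ACY1, chr3:51989104-51989133, plus strand: ggggcttccatCCCAACCAgtgccaaggac
PA2G4, chr12:56113078-56113107, plus strand: aggtgaggcttCCCAACCAcggaagactac
HDLBP, chr2:241229540-241229569, minus strand: gctgacccaaaCCCAACCAcacaatggttt
RALY, chr20:34080246-34080275, plus strand: agagattggatCCCAACCtgttctgagatg
VCL, chr10:74118639-74118668, plus strand: ccatgttgctgCCAACCAtaccttccttcc
LMLN, chr3:198038901-198038930, plus strand: ctcgtcagcaaCCCAACCAcctcgtcagca
PLBD2, chr12:113389633-113389662, plus strand: cactcacccatCCAACCAcccatccaacca

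The libraries were not equally deep: miR92a 1 held 704448 counts, against 24751862 to 25982085 in the other 5 libraries. The median member had 25 counts in miR92a 1, for a counting error of 20%, and 1867 counts over the other libraries, for an error of 2.31%. Replicate 3 stood apart in both groups. The mean chi-square per gene between the counts of 2 libraries, which grows with depth, was 43.8 for miR92a 3 against miR92a 2, and 48.4 and 43.0 for scramble 3 against scramble 1 and 2, while it was 27.0 and 25.3 for miR92a 2 against scramble 1 and 2. Without replicate 3 of both groups, a choice made after seeing the data, the rule chose 249 genes, of which 119 were members. In miR92a 1, 11 members had fewer than 10 counts and 42 had fewer than 20. Erythroid K562 genes were abundant in every library (GATA1 at 166 to 224 CPM, HBG2 at 2488 to 3960 CPM), the B-cell gene MS4A1 and the keratin gene KRT5 were at 0, and the epithelial gene EPCAM lay at 135 to 172 CPM.

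The set was made of moderately abundant transcripts, as judged by CPM, which counts reads and so favours long transcripts. Mean scramble levels of the members lay between 21.2 and 2293 CPM, with a median of 75.1 CPM, against a median of 60.2 CPM for all 7782 genes above the abundance limit. Their mean miR92a levels had a median of 35.4 CPM. The mimic level was between 19.5% and 68.2% of the scramble level, with a median of 51.0%, so most members kept a large part of their transcript. In this bulk RNA, fewer cells that express a gene and less of its RNA per cell cannot be told apart.

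Taken as a sum, the members held 7431, 7798 and 7288 CPM in miR92a 1, 2 and 3, and 14942, 14974 and 14539 CPM in scramble 1, 2 and 3. The sums lay in separate ranges, as the rule makes certain, and differed little within a group. EEF1G alone supplied a large share; without it the sums were 6316, 6566 and 6248 CPM with the mimic and 12599, 12645 and 12331 CPM with scramble. The members' median log2 ratio was -0.99, -0.93 and -0.97 in the same-numbered pairs 1, 2 and 3. The median of pair 1 leaves out OCRL, which had no count in miR92a 1. Since the rule used every library, the closeness of these medians says nothing of the precision of the shallow library. The same medians over all genes above the abundance limit were 0.02, 0.03 and 0.03.

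**Figure D1:**
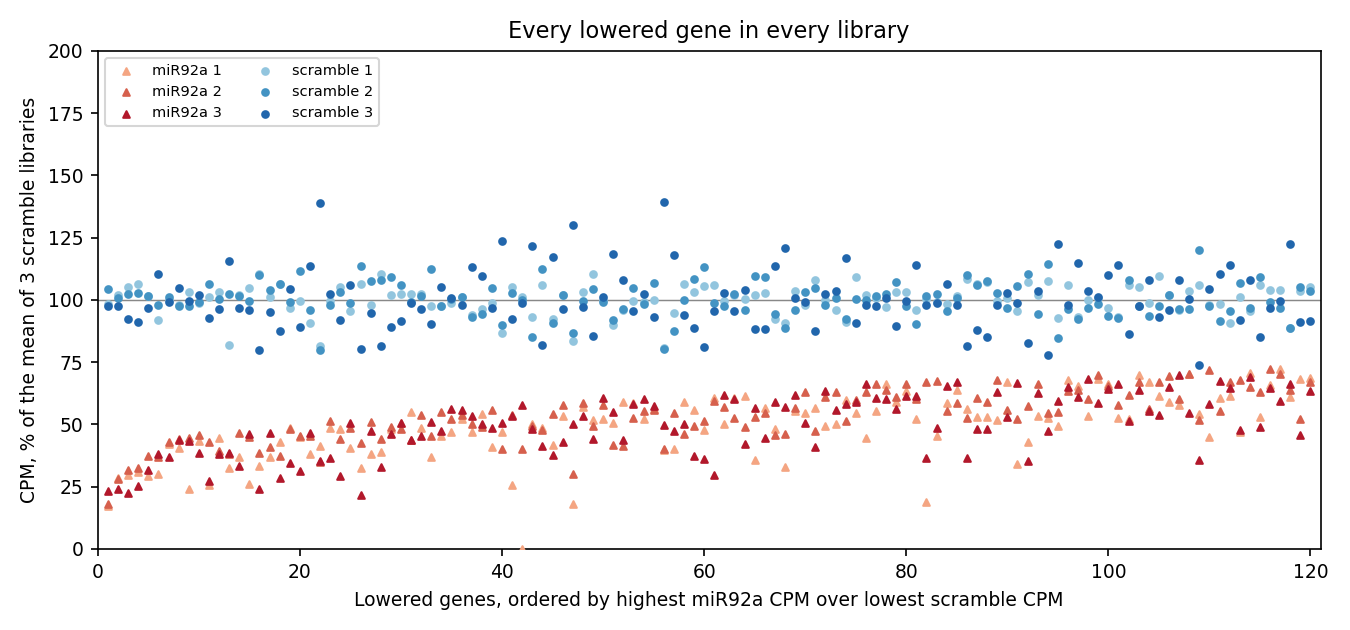
Each of the 120 lowered genes is a column of 6 points, its CPM in 3 miR92a libraries (triangles) and 3 scramble libraries (circles) as a percentage of its scramble mean, ordered by the ratio of highest miR92a to lowest scramble CPM. The points at the left have the widest gap (SLC25A23, ratio 0.240), those at the right the narrowest (DDA1, ratio 0.75), and the single point at 0 is OCRL in miR92a 1.

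The share of genes that were lowered is given at rising abundance limits, where each group of genes contains the next. It was 1.54% of genes with at least 20 CPM and 1.83% with at least 50 CPM (84 of 4583). It was 2.01% with at least 100 CPM (45 of 2242) and 1.41% with at least 200 CPM (12 of 853). Of the 69 genes with at least 1000 CPM, EEF1G was the 1 member. The edgeR log2 fold changes ran from -2.31 to -0.58 with a median of -0.997, and 57 members lay below -1, 11 below -1.5 and 1 below -2 on the log2 ratio of mean CPM.

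**Figure D2:**
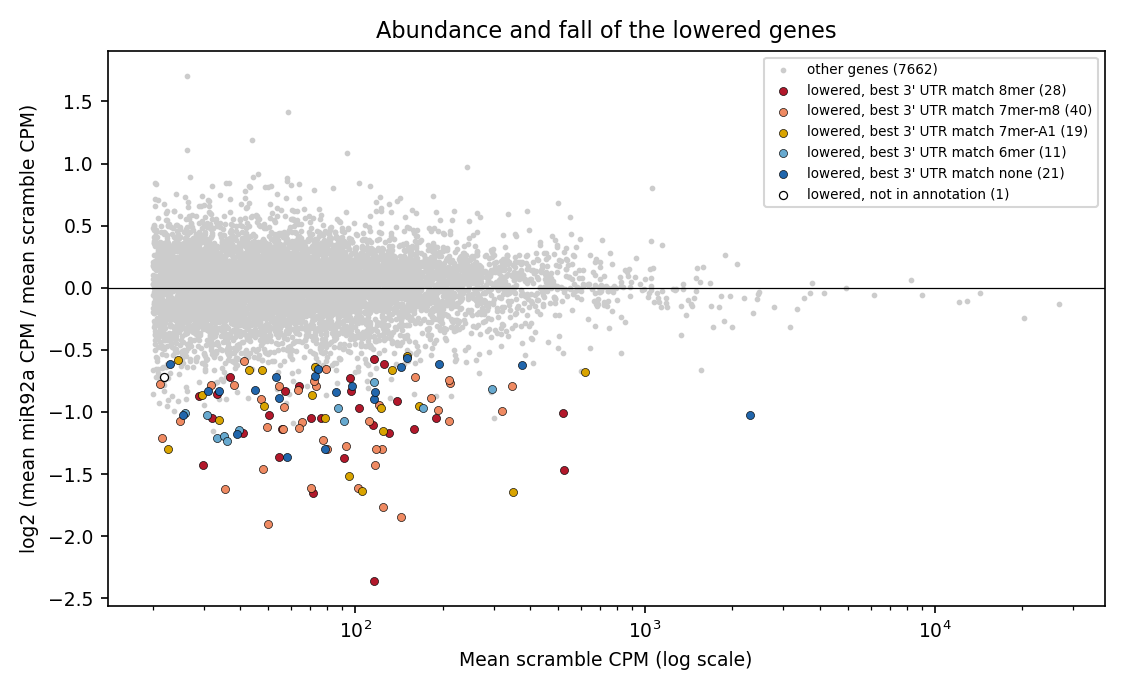
Mean scramble CPM (log axis) against the log2 ratio of mean miR92a to mean scramble CPM for all 7782 genes above the abundance limit, with the 120 lowered genes coloured by the kind of seed match in their 3′ UTR. The lowered genes spread over most of the abundance range, and SLC25A23 stands lowest.

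Grouped by their known roles, the 120 members spread over 9 classes. The most numerous was metabolic enzymes and lipid synthesis with 20 genes, of which some, such as INSIG1, are not enzymes. Receptors, kinases and signalling followed with 19, transcription and chromatin with 16, adhesion, matrix and cytoskeleton with 15, and membrane traffic and lipid transfer with 12. The class of ubiquitin, proteolysis and organelle turnover, called protein turnover for short, had 10, as had the little characterised genes. Transport and RNA or translation genes had 9 each. The classes' median log2 fold changes lay between -1.08 for the little characterised genes and -0.77 for protein turnover, and the classes' ranges overlapped.

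**Figure D3:**
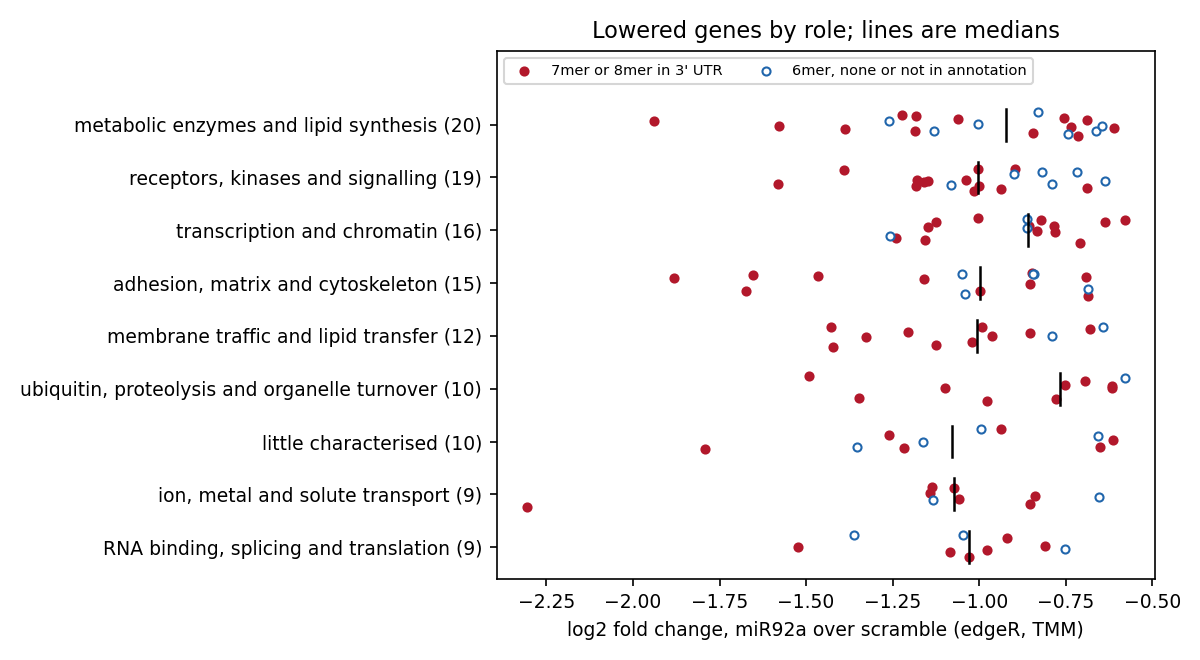
Log2 fold change (edgeR, miR92a over scramble) of each lowered gene by role, with the number of genes in brackets and the class median as a line. Filled points have a 7mer or 8mer match in the 3′ UTR and open points do not. The classes overlap widely, with medians from -1.08 to -0.77.

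Among the 20 genes of metabolism and lipid synthesis, HK1, the hexokinase that starts glycolysis, had the highest CPM. Its levels were 358, 371 and 431 CPM in miR92a 1, 2 and 3, against 593, 595 and 666 CPM in scramble 1, 2 and 3 (log2 fold change -0.69 ± 0.12, SE). PGK1, a later enzyme of glycolysis, had 61.0, 64.9 and 70.7 CPM with the mimic, against 116, 115 and 120 CPM with scramble. Neither gene's libraries spread far within a group, and HK1 kept 62.6% of its scramble level and PGK1 55.9%. Lipid synthesis was represented by ELOVL6, which lengthens fatty acids, at 64.2% of its scramble level, and by INSIG1, which holds the sterol-sensing SREBP complex in the endoplasmic reticulum, at 59.0%. PUDP, which removes phosphate from pseudouridine monophosphate, had the largest difference of this class, with 14.2, 14.0 and 12.0 CPM in the mimic libraries and 51.1, 50.4 and 48.8 CPM in the scramble libraries. Its values lay close together within each group, though that of miR92a 1 rests on only 10 counts. ACY1, which frees amino acids from their N-acetyl forms, had 18.5, 30.6 and 19.4 CPM with the mimic and 72.5, 76.0 and 66.2 CPM with scramble. DGUOK, the mitochondrial deoxyguanosine kinase, had 39.0% of its scramble level, and GBGT1, a glycolipid glycosyltransferase, 38.6%. The lysosomal protein PLBD2 had 45.0%. The genes from PUDP to PLBD2 lay under the set's median of 51.0%. SPTSSA, a small subunit of serine palmitoyltransferase, had 15.6, 15.3 and 7.61 CPM with the mimic and 27.2, 25.4 and 24.6 CPM with scramble, so that miR92a 3 was lowest.

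The 19 signalling genes included several kinases and phosphatases. WNK1, a kinase of ion balance, had the highest CPM, at 155, 171 and 179 CPM with the mimic and 296, 294 and 301 CPM with scramble. JAK1, a kinase of cytokine receptors, had 61.0, 70.1 and 55.8 CPM in the mimic libraries against 123, 123 and 101 CPM in the scramble libraries. WNK1 had the more even libraries in both groups. SOCS2, an inhibitor of cytokine signalling, had 45.9% of its scramble level. PPME1, which removes a methyl group from the catalytic subunit of protein phosphatase 2A, had 29.8, 37.8 and 32.2 CPM with the mimic and 103, 104 and 98.4 CPM with scramble (log2 fold change -1.58 ± 0.11). It had the largest difference in its class. PPP6R1, a regulatory subunit of protein phosphatase 6, had 53.9% of its scramble level, the tyrosine phosphatase PTP4A1 40.6% and the adiponectin receptor ADIPOR1 51.7%. BTG2, an antiproliferative gene, had the smallest difference here, with 129, 127 and 125 CPM in the mimic libraries and 189, 182 and 214 CPM in the scramble libraries. Cell-surface members named after their values were seen were the receptors TNFRSF1B (47.7%), LIFR (47.4%) and ERBB3 (43.2%) and the planar-polarity protein VANGL1 (63.4%). ERBB3 was not called in the edgeR fit described below and had 6 counts in miR92a 1. Its scramble mean was raised by scramble 3, at 29.8 CPM against 17.2 CPM in scramble 1 and in scramble 2.

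In the class of transcription and chromatin, SMC1A, a core subunit of cohesin, had the highest CPM, with 210, 181 and 208 CPM with the mimic and 353, 355 and 330 CPM with scramble. NSD1, a histone methyltransferase, had 85.2, 79.5 and 81.7 CPM in the mimic libraries against 133, 121 and 123 CPM in the scramble libraries. SMC1A kept 57.7% of its scramble level and NSD1 65.5%, and CHD9, a chromatin remodeller, kept 68.2%, the most of any member. ATN1, the corepressor atrophin 1, had 44.4%, the zinc-finger gene REPIN1 58.7% and the clamp-loader subunit CHTF8 60.8%. The lowest log2 fold change of the class, -1.26, was that of SWI5, a partner in recombination repair, with 15.6, 16.5 and 13.9 CPM with the mimic and 35.7, 35.8 and 36.8 CPM with scramble.

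The 15 adhesion, matrix and cytoskeleton genes held 4 of the 11 members whose log2 ratio of mean CPM was below -1.5, namely VCL, MYO1D, TGM2 and DAG1. VCL encodes vinculin, which ties integrins to actin, and had 116, 135 and 83.9 CPM with the mimic and 385, 383 and 278 CPM with scramble. MYO1D, a class I myosin, had 42.6, 45.2 and 32.2 CPM in the mimic libraries against 151, 147 and 132 CPM in the scramble libraries. TGM2, a protein-crosslinking enzyme, had 34.1, 44.9 and 22.8 CPM with the mimic and 112, 120 and 84.6 CPM with scramble. For VCL, MYO1D and TGM2 replicate 3 was the lowest library in both groups. DAG1, the matrix receptor dystroglycan, had 35.0% of its scramble level, ITGA5, the alpha subunit of a fibronectin receptor, 47.2%, and the membrane-binding annexin ANXA2 50.2%. ANXA2 shares its name with 3 annotated pseudogenes, with which reads may have been split.

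Membrane traffic members belonged to several stations of the cell. RAB5C, a GTPase of early endosomes, had 68.1, 65.9 and 54.0 CPM with the mimic and 124, 132 and 106 CPM with scramble. SH3GL1, an endophilin that bends membranes during endocytosis, had 49.7, 50.7 and 43.5 CPM in the mimic libraries against 118, 119 and 117 CPM in the scramble libraries. Its scramble libraries were nearly equal. EHD1, which drives recycling from endosomes, had 51.1% of its scramble level, GBF1, an exchange factor of ARF GTPases at the Golgi, 56.3%, RRBP1, a ribosome-binding protein of the endoplasmic reticulum, 48.4%, SEC14L1 63.1% and RAB23 56.3%. EXOC3L2, an exocyst-like gene, had 15.6, 18.3 and 18.4 CPM with the mimic and 39.4, 49.1 and 55.5 CPM with scramble. OCRL, a phosphoinositide phosphatase of endosomes and Golgi, was the one member with no count in a library: it had 0, 14.2 and 20.5 CPM with the mimic and 35.8, 35.5 and 35.0 CPM with scramble, and 3 counts in miR92a 1 would have been 4.26 CPM. Its log2 fold change was -1.21 ± 0.38, and -1.03 ± 0.18 without that library. It was not called in the edgeR fit (adjusted p = 0.208) and was called with the replicate number as a block (-1.23 ± 0.22, adjusted p = 0.00079).

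The protein turnover class held ubiquitin ligases and their helpers, and genes of organelle turnover. ZFP91, an E3 ligase, had 124, 116 and 137 CPM with the mimic and 207, 201 and 223 CPM with scramble. UBQLN4, which carries ubiquitinated proteins to the proteasome, had 61.0, 81.5 and 75.5 CPM in the mimic libraries against 157, 172 and 151 CPM in the scramble libraries. MKRN1 and AREL1, both E3 ligases, kept 67.4% and 60.6% of their scramble levels, and the conjugating enzyme UBE2Q1 kept 64.4%. BNIP3L, a receptor for the removal of mitochondria in maturing red cells, had 48.3, 40.8 and 40.9 CPM with the mimic and 95.0, 93.0 and 162 CPM with scramble. Its scramble mean was raised by scramble 3, and its log2 fold change was -1.49 ± 0.23 with that library and -1.16 ± 0.10 without it. PEX19, which inserts peroxisomal membrane proteins, had 35.5, 31.3 and 30.4 CPM in the mimic libraries against 82.1, 79.8 and 76.6 CPM in the scramble libraries.

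The 9 transport genes held the largest difference of all. SLC25A23, a calcium-regulated carrier of ATP and phosphate in the inner mitochondrial membrane, had 19.9, 20.9 and 27.2 CPM with the mimic and 114, 122 and 113 CPM with scramble (log2 fold change -2.31 ± 0.14). ATP2B4, a calcium pump of the plasma membrane, had 47.5% of its scramble level, STIM1, the calcium sensor of the endoplasmic reticulum, 46.5%, and ITPR2, a calcium release channel named after its values were seen, 54.6%. ITPR2 was not called in the edgeR fit. SLC40A1 is ferroportin, the exporter of iron, and had 264, 264 and 205 CPM in the mimic libraries against 388, 362 and 376 CPM in the scramble libraries. SERINC1 had 50.7% and the proton-pump accessory subunit ATP6AP1 55.0% of their scramble levels.

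The 9 genes of RNA binding, splicing and translation held the member with the highest CPM. EEF1G, a subunit of translation elongation factor 1, had 1116, 1232 and 1040 CPM with the mimic and 2343, 2330 and 2208 CPM with scramble (log2 fold change -1.05 ± 0.09). It shares its name with 8 annotated pseudogenes and overlaps an annotated gene on its own strand, AP002990.1, so the split of reads among them is uncertain. PA2G4, a growth-related RNA-binding protein, had 224, 196 and 149 CPM in the mimic libraries against 558, 558 and 458 CPM in the scramble libraries. HDLBP, the KH-domain protein vigilin, had 263, 250 and 263 CPM with the mimic and 533, 551 and 476 CPM with scramble. The highest mimic library stood at 0.558 of the lowest scramble library for EEF1G, at 0.490 for PA2G4 and at 0.552 for HDLBP. The splicing factor subunit SF3A3 had 48.3% of its scramble level, the RNA-binding protein RALY 53.3% and the initiation factor EIF2A 57.9%. TNRC6B, the scaffold that links Argonaute to the machinery that shortens messenger RNA tails, had 48.3, 40.5 and 40.0 CPM in the mimic libraries against 71.1, 67.4 and 77.7 CPM in the scramble libraries.

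Of the 10 little characterised genes, TMEM50A had the largest difference, with 38.3, 40.4 and 31.3 CPM with the mimic and 132, 128 and 113 CPM with scramble. SZRD1 had 51.2% of its scramble level, FRYL 67.2%, C9orf16 42.7%, C5orf15 38.8% and TMEM64 37.3%. One member of this class, CTD-2311M21.2, had no entry of that name in the annotation and is named only.

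Compared per length, as CPM per kilobase of merged exons, EEF1G stood far above the other members, at 416 with the mimic and 844 with scramble. PA2G4 followed with 50.0 and 138, HK1 with 61.5 and 98.2, SLC40A1 with 56.4 and 86.6, and BTG2 with 46.2 and 70.7. The scramble median over members was 14.5 CPM per kilobase. In all, 18 members share a name with annotated pseudogenes, among them PTP4A1 with 7, PA2G4 and ISCA1 with 5 each, and PUDP and SH3GL1 with 3 each, and the split of their reads is uncertain. Of the 5 members with the widest gap, MYO1D, TMEM50A and PPME1 overlap annotated genes on the opposite strand.

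The set was spread over many gene families. Among gene symbols grouped by their shared start, the members included 2 of 23 ZBTB genes, 2 of 38 RAB genes, 2 of 54 ATP genes and 2 of 89 TMEM genes. No member had a symbol starting with RPL (52 genes) or RPS (39 genes), the starts used for ribosomal proteins. Neither did any start with ZNF (163 genes) or PSM (44 genes, proteasome). Members were 1.54% of all genes above the abundance limit, and nothing is read from counts in families of these sizes. The 119 members with a location lay on 21 chromosomes, with 18 (15.1%) on chromosome 1, which held 11.0% of the genes above the abundance limit. ERBB3 and PA2G4 were neighbours on chromosome 12, at 56076799 to 56103505 and 56104319 to 56113907, 814 bases apart, and an annotated gene, AC034102.2, overlaps both on their strand, so reads of these genes may have been shared.

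Other genes of the same pathways were read from the fit over all 14543 genes tested (edgeR's quasi-likelihood test at 0.05 after Benjamini-Hochberg adjustment, 3 libraries per group), in 15 lists chosen with earlier results of these data known. In that fit 142 genes were called lower, which is 0.976% of those tested, and 63 higher, which is 0.433%. Of 31 integrin, focal adhesion and matrix receptor genes tested 5 were lower and 0 higher, and the list's median log2 fold change was -0.12. The 5 were the members VCL, ITGA5, DAG1 and TGM2 and the vinculin partner TLN1. When the replicate number was added to the fit as a block, 9 genes of this list were lower and 1 was higher. Over all 14543 genes tested, the block called 975 lower (6.7%) and 664 higher, the background of every block count given for a list. Of 38 mitochondrial SLC25 carriers, SLC25A23 and SLC25A6 were lower, with a list median of -0.02, and 4 were lower with the block. Of 41 RAB genes, RAB5C and RAB23 were lower and RAB7A was higher, with a median of -0.12, and with the block 7 were lower and 1 was higher.

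Each of the other 12 lists held at most 1 member and at most 1 gene called lower. That gene was the member in 8 of them. MYO1D was called among 21 myosin heavy chains (3 lower with the block), BNIP3L among 15 genes of mitophagy and autophagy (3 with the block), TNRC6B among 13 microRNA effectors (1 with the block) and UBE2Q1 among 34 ubiquitin-conjugating enzymes (3 lower and 1 higher with the block). SOCS2 was called among 16 genes of SOCS and STAT5 output and SLC40A1 among 16 of iron handling. With the block 5 and 4 genes of these lists were lower and 1 of each was higher. BTG2 was called among 5 BTG and TOB genes, of which 3 were lower with the block. PPME1 was called lower and the scaffold subunit PPP2R1B higher among 25 genes of protein phosphatase 2A, and with the block 1 was lower and 3 were higher.

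In 3 lists the gene called lower was no member. It was the glycolipid transfer protein GLTP among 32 genes of sphingolipid synthesis and transfer (log2 fold change -1.70 ± 0.28), where the member SPTSSA was not called (edgeR adjusted p = 0.0789, and 0.000151 with the block). With the block 5 genes of that list were lower and 3 higher. Among 39 phosphoinositide kinases and phosphatases PI4KB was lower and PIP4K2A and PTPMT1 were higher, while the member OCRL was not called, and with the block 7 were lower and 3 higher. LYN was lower among 9 kinases of the SRC and AXL families, which held 0 members, and 4 were lower with the block. The 21 tetraspanins held 0 members and 0 called genes, and with the block 3 were lower and 2 higher.

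Letters that match the miR-92a-1-5p seed were common in the 3′ UTRs of the set, a feature that the rule did not use. Of the 120 members, 119 were found in the annotation, all as protein-coding genes with a 3′ UTR. A 7mer or 8mer match stood in the longest 3′ UTR of 87 of them (73.1%), against 4 of the 55 raised genes with a 3′ UTR (7.27%) and 1212 of the other 7441 genes above the abundance limit (16.3%). The best match was an 8mer in 28 members (23.5%, against 2.70% of other genes), a 7mer-m8 in 40 (33.6%, against 8.49%) and a 7mer-A1 in 19 (16.0%, against 5.09%). The best match was a 6mer in 9.24% of members and 9.88% of other genes. Among genes with no 7mer or 8mer, a 6mer stood in 11 of 32 members (34.4%), against 735 of 6229 other genes (11.8%). For the letters of the partner strand miR-92a-3p (seed match GTGCAAT), the shares were 30.3% of lowered, 29.1% of raised and 20.2% of other genes. Coding sequences and 5′ UTRs were searched only in the transcript that holds the longest 3′ UTR, not in other isoforms. In these coding sequences a 7mer or 8mer for miR-92a-1-5p stood in 31.1% of members, 12.7% of raised genes and 19.8% of other genes, and in the 5′ UTRs in 2.52%, 7.27% and 2.49%. A match is a description of the letters and does not show that the transcript is bound there.

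**Figure D4:**
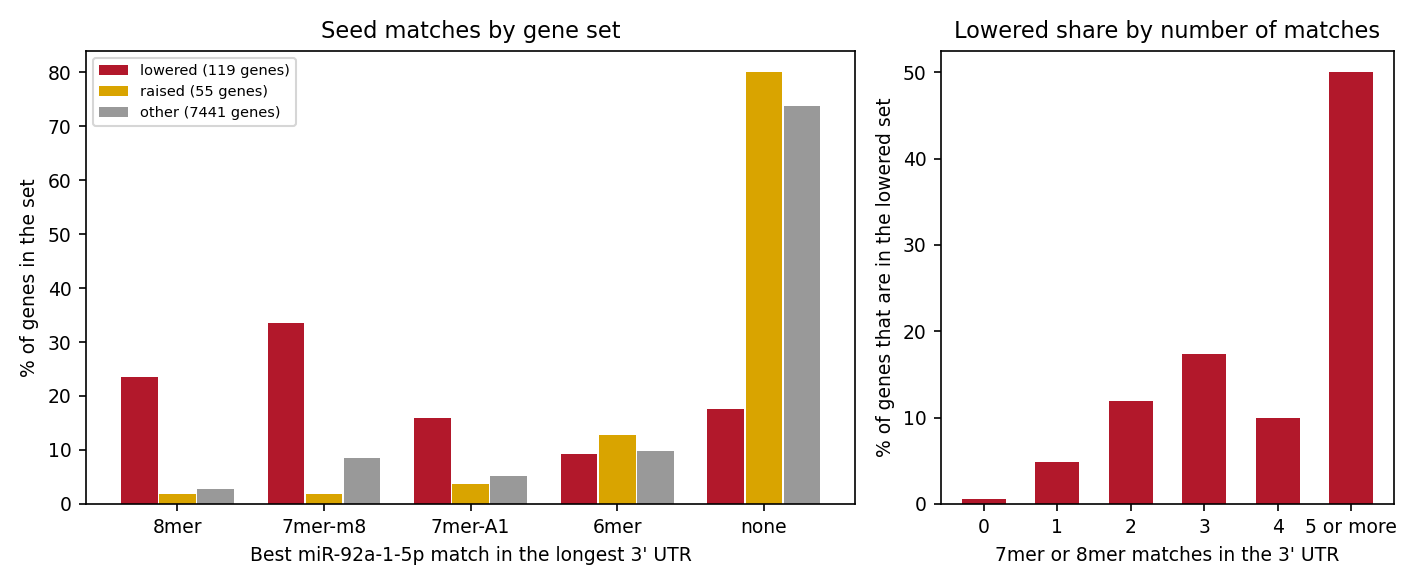
Left, the percentage of lowered, raised and other genes by the best miR-92a-1-5p seed match in the longest 3′ UTR. Right, the percentage of genes that belong to the lowered set by the number of 7mer or 8mer matches, from 0.507% with no match to 50% of the 8 genes with 5 or more.

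Read the other way, the share of genes that were lowered differed with the kind and number of matches. It was 0.378% of the 5559 genes with no match, 1.46% of those with a 6mer, 4.75% with a 7mer-A1, 5.94% with a 7mer-m8 and 12.2% of the 230 genes with an 8mer. By number of 7mer or 8mer matches it was 0.507% with 0, 4.88% with 1, 11.9% with 2 and 17.4% with 3 matches. Of 10 genes with 4 matches 1 was lowered, and of 8 genes with 5 or more 4 were lowered. Of 11 genes with 2 or more 8mers, 6 were lowered. Most genes with a match were thus not in the set, including those with an 8mer, of which 201 were among the other genes, neither lowered nor raised.

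Longer 3′ UTRs hold more matches by their length, and the members' 3′ UTRs were longer, with a median of 1923 bases against 1433 in other genes. The members' share with a 7mer or 8mer was above that of other genes in each of 4 classes of 3′ UTR length with about equal numbers of genes, at 60%, 65.5%, 70.7% and 88.2% from the shortest class to the longest, against 5.45%, 9.96%, 17.9% and 32.0%. Per kilobase of 3′ UTR there were 0.562 matches in members and 0.0954 in other genes. The GC content of the 3′ UTRs had a median of 45.4% in members and 42.2% in other genes, and its part in the difference was not tested.

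The 155 matches in members also lay closer to the stop codon. Their median position was 494 bases into the 3′ UTR and, as a share of its length, 30.5%, against 1221 bases and 48.7% for the 1505 matches in the other genes, raised ones included. The first 20% of the 3′ UTR held 34.8% of the members' matches and 20.9% of the others. LMLN alone supplied 12 of the 54 matches of members there, so matches are not independent of one another. Without the matches of LMLN and PLBD2, which hold the most, the members' median position was 30.8%. The share of A and U letters around the matches had the same median in both, 51.7%.

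**Figure D5:**
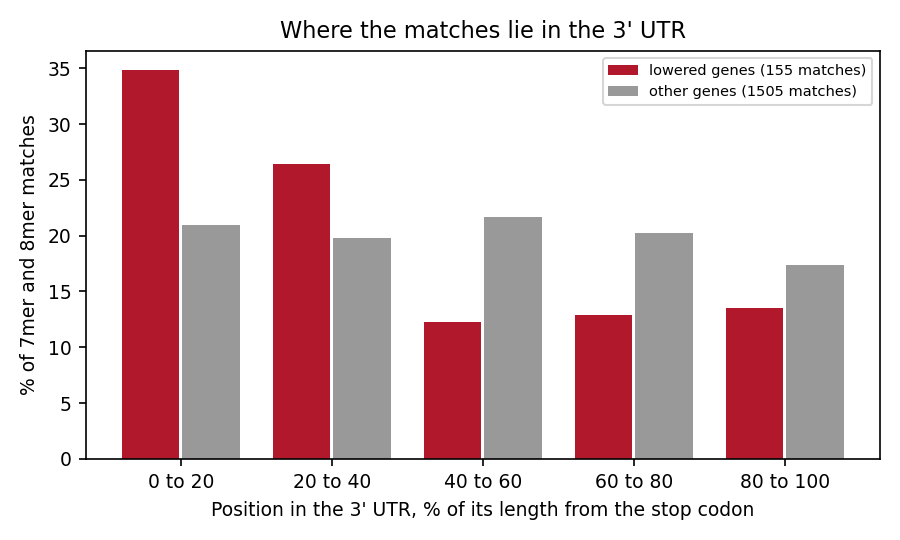
Percentage of 7mer and 8mer matches in each 20% of the 3′ UTR, counted from the stop codon, for 155 matches in lowered genes and 1505 in other genes. The lowered genes' matches are most frequent in the first 20% (34.8%), where LMLN alone supplies 12 of 54, while the others' lie between 17.4% and 21.7% in each bin.

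Several members stood out by their matches. SLC25A23 had 5 in a 3′ UTR of 1911 bases, 3 of them 8mers, and all started between bases 65 and 580. PA2G4 and HDLBP, which followed EEF1G and HK1 in CPM, each had 1 8mer, and PA2G4 had a 7mer-m8 besides. Of the members' matches 10 (6.45%) could pair with the mimic without a break over at least 9 bases from base 2 onward, against 37 (2.46%) in other genes. The longest, in RALY, ran over 10 bases, and PUDP, ACY1, PEX19 and SH3GL1 each had one over 9. VCL had 1 match, a 7mer-A1 that starts at base 481 of a 3′ UTR of 3194 bases. TAF10 has an annotated 3′ UTR of only 80 bases, and its 7mer-m8 starts at base 5 of it.

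LMLN, which encodes a metallopeptidase, had the most matches in the set: 12, of which 10 were 8mers, all between bases 183 and 471 of its 3′ UTR on chromosome 3 (198038850 to 198039145). They recur every 20 to 41 bases, with a median step of 21, in a repeated run of letters of which 1 unit is printed above. No gene above the abundance limit outside the set had more than 2 8mers or more than 5 matches of 7 or 8 letters. LMLN had 22.7, 17.3 and 15.2 CPM with the mimic and 34.5, 35.0 and 30.3 CPM with scramble. Its log2 fold change of -0.98 ± 0.14 was close to the set's median, and its ratio of highest mimic to lowest scramble library, 0.749, was next to last inside the limit. PLBD2 had 8 7mer-A1 matches and no 8mer, between bases 1018 and 2140 of its 3′ UTR. It had 59.6, 64.1 and 45.1 CPM in the mimic libraries against 132, 141 and 101 CPM in the scramble libraries.

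The size of the difference within the set is given by the kind and number of matches as a description, since the rule used these fold changes and left out small ones. The median log2 fold change was -1.02 with an 8mer, -1.05 with a 7mer-m8, -0.94 with a 7mer-A1, -1.08 with a 6mer and -0.79 with none. By number it was -0.85 with 0, -1.10 with 2 and -1.12 with 3 or more matches, and members with 1 match lay between the first and the second of these. The members' fold changes ranged from -2.31 to -0.58 in all, and these medians say nothing of genes outside the set. By role, the share of members with a 7mer or 8mer ran from 65% of metabolic genes (13 of 20) to 90% of the protein turnover genes (9 of 10), and the adhesion class had none with an 8mer.

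In 32 members the longest 3′ UTR held no 7mer or 8mer, and in 21 of these not even a 6mer. The one with the highest CPM was EEF1G, whose annotated 3′ UTR has 78 bases and whose coding sequence holds 1 match. WNK1 had a 6mer in the 3′ UTR and 4 coding matches, JAK1 and EIF2A had 2 coding matches each, and R3HDM1, named after its values were seen, had 3. Altogether 10 of the 32 had a coding match in the transcript searched, and 22 had neither. Coding sequences of their other isoforms were not searched. Among these 22 were PGK1, SLC40A1, BTG2, RAC2, MKRN1, ELOVL6, INSIG1 and SWI5. A 7mer or 8mer for miR-92a-3p stood in 9 of the 22, including BTG2 and ELOVL6 with an 8mer. Such a match stood in 30.3% of all lowered, 29.1% of raised and 20.2% of other genes, so nothing is read from this count. The highest mimic library of these 22 had a median of 0.669 times the lowest scramble library, against 0.633 for all members. One of them, SWI5, has an 8mer in an annotated 3′ UTR other than the longest one searched here.

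In the edgeR fit 105 of the 120 members were called lower (87.5%), where 0.976% of all tested genes and 1.79% of genes above the abundance limit were called, and nothing is read from this since the rule used the same contrast. They made up 73.9% of the 142 genes called lower. With the replicate block all 120 members were called, where 6.7% of all tested genes and 10.1% of those above the abundance limit were. DESeq2 called 116 members lower, where 2.62% of genes with an adjusted p were. The 15 members not called without the block included OCRL, SPTSSA and SH3BGRL2. Separate ranges in the 2 groups, with the mimic lower, were shown by 913 genes, or 11.7% of those above the abundance limit. Leaving out miR92a 2, the rule chose 193 genes, and leaving out scramble 3 it chose 208. With 1 library left out the edgeR fit called 55 members without miR92a 1, 58 without miR92a 2, 57 without scramble 1 and 54 without scramble 2, and 80 and 96 without miR92a 3 and scramble 3. The number of all genes called also changed in these fits, as given further on, so nothing is read from the members' counts.

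The fold limit cut through a continuous range. Just inside it lay SH3BGRL2 at 0.748, LMLN at 0.749 and DDA1, a subunit linked to a ubiquitin ligase, at 0.75. Just outside lay ZNF3 at 0.752, and ZCCHC24 and TPMT, both at 0.755. ZNF3 had 45.4, 48.1 and 56.9 CPM with the mimic and 80.3, 76.1 and 75.6 CPM with scramble, so it differed from the nearest members by less than the spread between libraries. On the abundance side, ICAM1 had the lowest level of any member, with a scramble mean of 21.2 CPM, and ALDH6A1, at 19.1 CPM, was the nearest gene left out.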

How the data were processed

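The 6 libraries are of total RNA from K562 cultures, 3 per group, labelled as biological replicates; since nothing says more of their origin, p-values measure the spread between these samples. The values are expected counts, which the authors made with kallisto from read pairs per the labels' protocols and deposited as whole numbers per gene symbol, with no scaling. GRCh38 is the build per the submitters' processing notes; the version, annotation and library strand are not given in the sources used here, so a gene and its antisense partner cannot be told apart (19 members overlap a gene on their own strand and 47 one on the other).

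CPM used library totals. The counts were tested in R 4.3.3 with edgeR 4.0.16 (filterByExpr, which all 120 members passed, TMM, quasi-likelihood F-test on group, Benjamini-Hochberg adjustment over 14543 genes, threshold 0.05), with DESeq2 1.42.0 as an alternative. Standard errors are the log2 fold change divided by the square root of F. Python 3.11.15, numpy 2.4.6, pandas 2.3.3, scipy 1.17.1 and matplotlib 3.10.9 served for the rest, and the code was tested on simulated data. 3′ UTRs, coding sequences, coordinates and neighbours came from GENCODE v29, in which 7713 of the 7782 symbols above the abundance limit and 119 members were found; the isoforms in use were not measured. The miRNA sequences are those of RefSeq.

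The members, lists and roles were chosen with earlier results of these data known. Genes were named if among the 10 most abundant members, the 15 with the lowest ratio, the 6 most abundant of a role, the 3 on each side of the fold limit, or in a list; any other named gene was chosen after its values were seen. Some results that these rules select are not reported here. No pair of libraries agreed within sampling noise (the mean chi-square per gene was at least 1.81, for miR92a 1 and 2, and was 4.83 for scramble 1 and 2, the smallest between deep libraries of a group). The labels do not say whether replicate numbers pair the cultures. Over the genes tested, libraries of the same number had correlations of 0.15, 0.16 and 0.42 in their deviations from the means of their groups, each above 0.1, so the number was also fitted as a block, and its counts of calls are given beside the others; all 15 members not called without it were called with it, and the adjusted p-values of OCRL and SPTSSA are printed from both fits; replicates 1 and 2 were not set apart from each other, since miR92a 2 correlated with scramble 1 at 0.52 over abundant genes and with scramble 2 at 0.48. Counting errors cover counting alone.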

Additional observations from a re-analysis of the deposited data

How the results depend on the processing

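The set changed size with the rule: a fold limit of 0.6 left 46 genes, limits of 0.7 and 0.8 gave 93 and 170, and TMM scaling gave 131, of which 118 were members. With each library left out in turn the rule gave 124 to 208 genes, and 61.7% to 72.4% of them had a 7mer or 8mer in the 3′ UTR. Without replicate 3 of both groups, chosen after seeing the data, it gave 249 genes, and 61.5% had one. With the replicate block, in which each same-numbered pair had to pass the limit, 222 genes passed and 63.3% had a match. Of the 119 members, 23.5% had an 8mer and 82.4% a 6mer or better. Leaving out a library or testing pairs eases the rule, so apart from the abundance limit these sets contain the 120 members by design. The cause of the changes in the share with a match was not tested.

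The edgeR quasi-likelihood test called 142 genes lower and 63 higher. DESeq2 called 246 lower and 139 higher, and the replicate block 975 lower and 664 higher. With each library left out in turn the counts were 56 to 148 lower and 14 to 53 higher, and 54 to 96 members were called lower. Of the 105 members called, 42 were still called whichever library was left out and 63 were lost without at least 1, a design with fewer samples each time. No member changed direction in any setting run, which the rule makes nearly certain, so nothing is read from it. Median-of-ratios scaling, total counts and no filter kept all counts within 1.5 times. The depth of miR92a 1 limits the precision of every mimic mean, most for the 11 members with fewer than 10 counts there.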

Other observations

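The members that varied most within a group were not the same in both groups. Scramble 3 was the lowest scramble library for 63 members and the highest for 47, so it lay between the other scramble libraries for few. The median coefficient of variation of the members was 11.5% over the miR92a libraries and 6.83% over the scramble libraries. In the miR92a libraries it reached 90.8%, for OCRL, and in the scramble libraries 33.9%, for ERBB3. The share of depth in this was not tested.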
